A study of Mus musculus with 7 samples.

Results

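Interferon response and antigen presentation genes are 38 genes listed by symbol, with no value of theirs in the rule although earlier results of these data were known, measured on 1-colour Agilent arrays in RNA of the heart apex from 7 C57BL/6 males. Probes for 36 of the 38 were found through the RefSeq transcript accession that the arrays carry, among 22344 features tested, 13697 of them named genes; Mx1 and Mx2 had no matched probe and have no value here. The 36 comprise 8 regulators and RNA sensors, 13 antiviral effectors, 6 guanylate-binding protein (GBP) and immunity-related GTPases (IRG), 6 genes of the MHC class I pathway and 3 of the MHC class II pathway. The regulators and the effectors are together called the type I response here, and both MHC groups antigen presentation.

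The 4 control hearts came from mice homozygous for floxed Mapk14, the gene of the kinase p38α, in which loxP sites flank exons 2 and 3. The 3 KO (knockout) hearts came from mice with the same floxed alleles that also carried, in the heterozygous state, the MerCreMer transgene, a Cre recombinase switched on by tamoxifen, under the cardiomyocyte α-MHC promoter. Hydroxytamoxifen was given to all 7 mice, at 6 weeks of age, as 500 µg daily over 10 days. At 3 months all 7 had angiotensin II infused by minipump for 48 hours, at a daily 1.5 mg/kg, and the hearts were taken. No heart without angiotensin II and no heart with Cre but without floxed alleles was analysed here, so deletion and Cre cannot be told apart, and the study's text speaks of a further KO heart that was not analysed here. The labels name the hearts as separate samples, and p-values measure the spread between them.

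Type I interferons act through the IFNAR receptor on a complex with STAT2 and IRF9, which binds interferon-stimulated response elements (ISRE) before antiviral genes. Interferon gamma acts on gamma-activated sites (GAS), and is a strong inducer of the GBP and IRG GTPases and of MHC genes. MHC class I is made by nearly every nucleated cell and shows peptides cut by the proteasome and carried by TAP, while MHC class II is made mainly by macrophages, dendritic cells and B cells. In the heart after angiotensin II, the myeloid cells that enter the wall are a known source of class II transcripts.

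The promoters are shown because the interferon signals described above act on these elements. In the RefSeq table of GRCm38.p6, 29 of the 38 genes had an entry; Usp18, Oas2, Mx1, Mx2, Iigp1, Nlrc5, Tap2, H2-Ab1 and Cd74 did not. The ISRE core, searched on both strands as GAAANNGAAA, was found in the 250 bases before the start of 13 of the 29 (44.8%), against 3.46% of 27025 genes. It was present in 5 of 5 GBP and IRG genes, 6 of 12 antiviral effectors (Isg15, Ifit1, Ifit3, Rsad2, Oas1a and Bst2), 1 of 7 regulators (Stat2), 1 of 4 class I genes (B2m) and not in H2-Aa, the only class II member with an entry. The GAS pattern TTCNNNGAA was found in 7 of 29 (24.1%), against 8.13% of all genes: Irf1, Irf8, Ifit2, Oas1a, Bst2, Gbp7 and Igtp. A gene was counted once where matches overlapped one another, and in Bst2 the ISRE and GAS matches overlapped. A match is a run of letters, not a shown binding site. The stretches below run 5′ to 3′ along the gene's strand, with 1 matched run in capitals, for members that the values below turn on. Further matches within the stretches of Isg15, Ifit1, Gbp3 and Irf8 stand in lower case.
Isg15, chr4:156200856-156200915, minus strand: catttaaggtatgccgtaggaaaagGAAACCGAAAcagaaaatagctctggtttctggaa
Ifit1, chr19:34640779-34640838, plus strand: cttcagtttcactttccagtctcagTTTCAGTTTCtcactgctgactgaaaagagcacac
Rsad2, chr12:26456538-26456597, minus strand: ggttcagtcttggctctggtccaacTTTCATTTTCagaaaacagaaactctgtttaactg
Gbp2, chr3:142620579-142620638, plus strand: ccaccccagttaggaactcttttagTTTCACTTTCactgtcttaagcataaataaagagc
Gbp3, chr3:142559974-142560033, plus strand: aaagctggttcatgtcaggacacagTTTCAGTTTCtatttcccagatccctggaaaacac
B2m, chr2:122147523-122147582, plus strand: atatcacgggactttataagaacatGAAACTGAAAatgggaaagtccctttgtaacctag
Irf8, GAS, chr8:120736161-120736220, plus strand: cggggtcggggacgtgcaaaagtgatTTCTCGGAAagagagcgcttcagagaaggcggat

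All 36 measured members were well above background on all 7 arrays, and none was saturated. Levels below are log2 processed signals minus the array's 75th percentile, so that a level of 0 equals that percentile and a difference of 1 is a 2-fold difference; levels of different genes are not compared. The arrays lay on 1 slide, in 2 rows, with control 1, control 2 and KO 1 in one row and the others in the second, and 46.0% to 49.7% of probes were well above background on each array. Mapk14 itself read 3.40 to 3.67 in controls and 3.71 to 3.76 in KO hearts (adjusted p = 0.202, limma); without probe positions, whether this probe lies in the deleted exons is not known here, so it checks no label. The labelled tissue bore its markers: cardiomyocyte markers were measured in 7 of 7, with sums of 4139 to 5069 in controls and 3479 to 4159 in KO hearts, where the array's 75th percentile is 1. By limma 3 of the 7 fell, against 15.0% of all features.

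Few of the members differed between KO and control hearts as groups. By limma with Benjamini-Hochberg adjustment over all features, 3 of 36 passed the threshold of 0.05 and all 3 rose in KO: Irf8, Ifitm3 and Oasl1. Over all features 25.2% passed, 10.2% higher and 15.0% lower in KO, so the members' share of 8.33% was below the background. At an unadjusted p under 0.05 there were 4 members, against 9510 of the 22344 features. The median difference of the 36 was -0.01, beside -0.06 over all features, with a lowest value of -0.72 in Rsad2 and a highest of 0.92 in Irf8. The levels of the groups did not overlap in 4 of 36 members (Irf8, Ifitm3, Oasl1 and Rsad2), against 39.0% of all features.

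**Figure D1:**
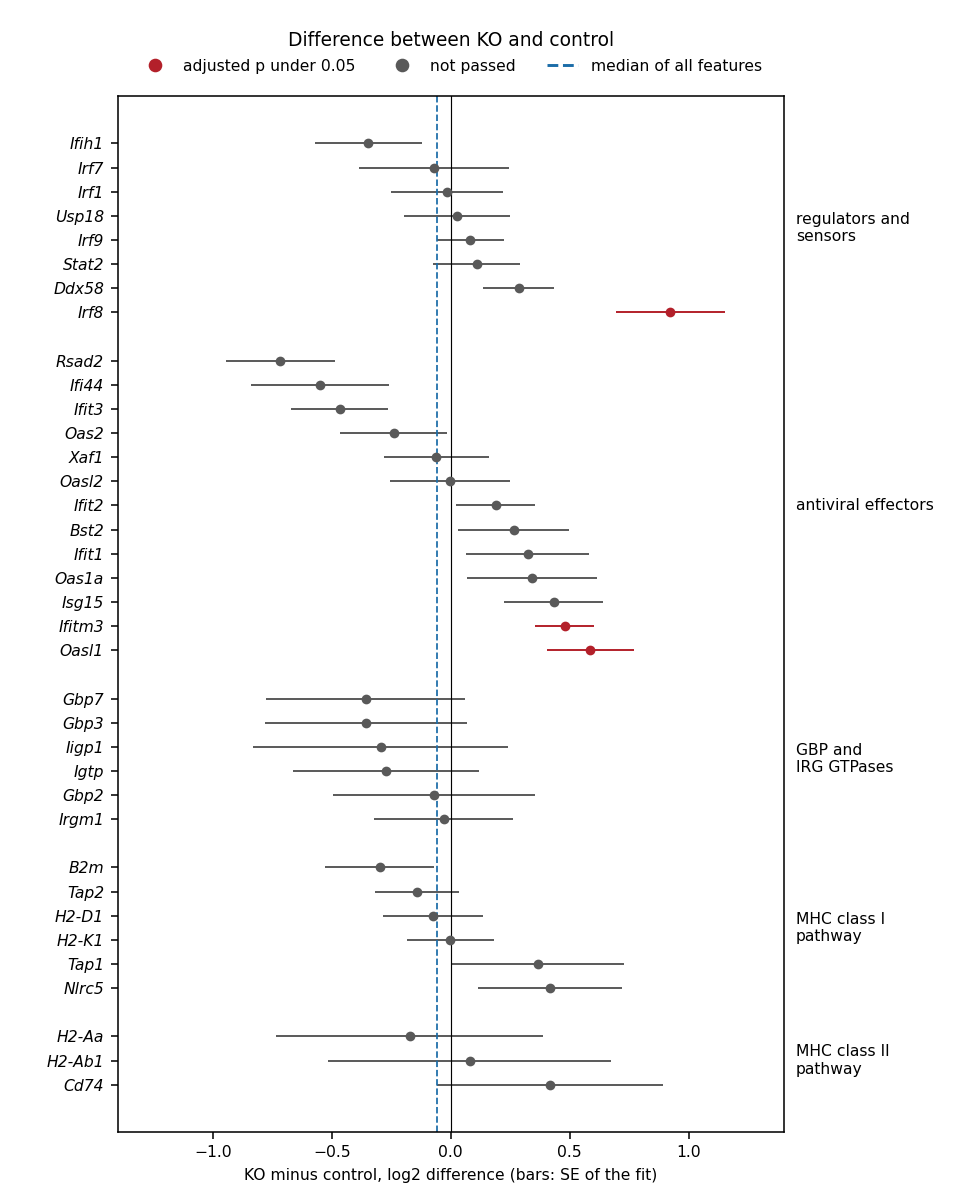
Each point is a member's KO minus control difference on the log2 scale, with bars for the standard error of the fit over 4 control and 3 KO hearts; members are grouped by role, red points passed the adjusted threshold of 0.05, and the dashed line is the median of all features at -0.06. Irf8, Ifitm3 and Oasl1 are the 3 red points, all to the right of 0, and the bars of the GBP, IRG and class II genes are the widest as groups.

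The members spread widely between the 3 KO hearts. The SD was larger in KO than in control in 32 of 36 members, against 45.0% of all features. The median SD of the members was 0.24 in controls and 0.47 in KO hearts, while over all features it was 0.24 and 0.22. The range over the 3 KO hearts was above 1, a 2-fold difference, in 15 of 36 members, against 11.8% of all features, and the range over the 4 controls in 4 of 36, against 16.3%. KO 1 was the lowest of the 3 KO hearts in 31 of 36, against 29.4% of all features, and KO 2 the highest in 26 of 36, against 41.9%. KO 1 lay below all 4 controls in 23 of 36, against 38.9%, and KO 2 above all 4 controls in 22 of 36, against 32.8%. The members share the same 7 arrays, so these counts are descriptions of 3 hearts and carry no test. KO 1 was also the only KO heart in its slide row, so between KO 1 and the other KO hearts, heart and row cannot be told apart.

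**Figure D2:**
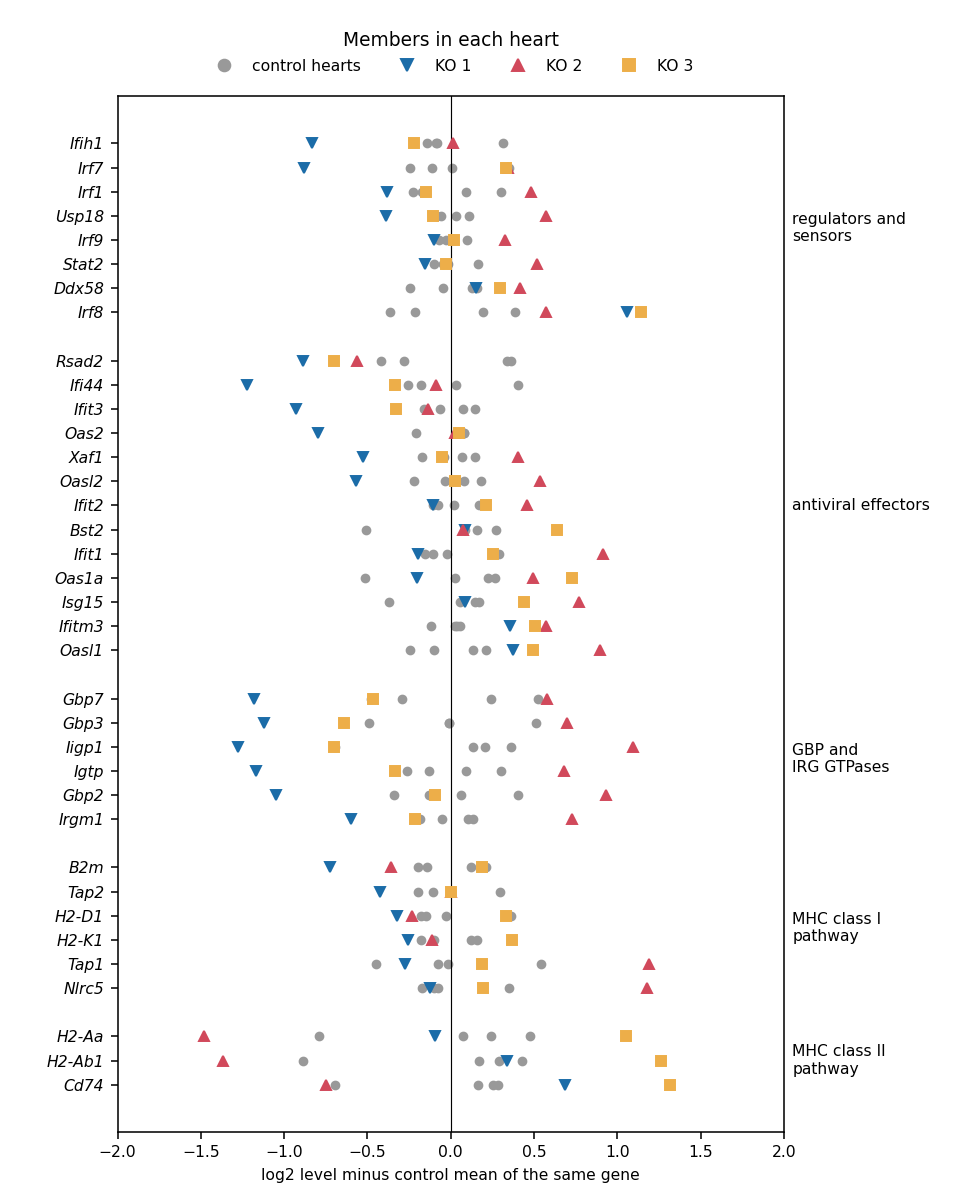
Each row is a member, and each symbol is 1 heart's log2 level minus the control mean of that gene; grey circles are the 4 controls, and triangles and squares are the 3 KO hearts. KO 1 (blue) is the leftmost KO heart in 31 of 36 rows, and in the 3 class II rows at the bottom KO 2 (red) is leftmost and KO 3 (orange) rightmost. KO 1 is the only KO heart in its slide row.

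Among the regulators and sensors, 1 of 8 rose, against 10.2% of all features. This was Irf8, a transcription factor of the interferon regulatory factor family that macrophages and dendritic cells depend on. Irf8 read 1.29, 1.48, 0.73 and 0.88 in controls 1 to 4 and 2.15, 1.67 and 2.23 in KO hearts 1 to 3. Every KO heart was above every control, with KO 1 and KO 3 well above KO 2, and the difference was 0.92 ± 0.23 (SE), or 1.90-fold (adjusted p = 0.0267, limma). The call was lost without control 3 (adjusted p = 0.0601), control 4 (0.0694), KO 1 (0.111) or KO 3 (0.0614). Within the slide rows the difference was 0.77 and 1.14.

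None of the other regulators passed, and the SD was larger in KO hearts in 6 of the 8 regulators and sensors. Irf7, which amplifies the type I response, read -0.87, -0.76, -1.01 and -0.41 in controls and -1.64, -0.42 and -0.43 in KO hearts. Only KO 1 stood apart, below all controls, and the difference was -0.07 ± 0.31 (adjusted p = 0.882). Usp18, a protease that removes ISG15 from proteins and dampens the interferon receptor, read -0.14, -0.05, -0.17 and 0.02 in controls and -0.47, 0.49 and -0.19 in KO hearts. Here the controls lay within 0.19 of one another, while KO 1 was below and KO 2 above all of them; the KO range was 0.96, or 1.95-fold. Ddx58, the RNA sensor RIG-I, read 1.22, 1.40, 1.03 and 1.43 in controls and 1.42, 1.68 and 1.56 in KO hearts, with the KO hearts closer together than the controls. The difference was 0.29 ± 0.15 (adjusted p = 0.179), but its other kept probe gave -0.19, so its direction is uncertain. The remaining differences were 0.11 for Stat2 and 0.08 for Irf9, partners in the type I signal, -0.02 for Irf1, an activator of MHC class I and GBP genes, and -0.35 for Ifih1, the RNA sensor MDA5, none of which passed. The median of the 8 was 0.05.

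Of the antiviral effectors 2 of 13 rose and none fell by the test, beside 10.2% and 15.0% of all features. Ifitm3, a membrane protein that blocks virus entry, read 4.11, 4.08, 3.94 and 4.09 in controls and 4.41, 4.63 and 4.56 in KO hearts. Both groups were tight and did not overlap, and the difference was 0.48 ± 0.12, or 1.39-fold (adjusted p = 0.0295, limma). Oasl1, an OAS-like protein that lowers translation of Irf7, read 0.78, 0.69, 0.32 and 0.46 in controls and 0.93, 1.45 and 1.05 in KO hearts, a difference of 0.59 ± 0.18, or 1.50-fold (adjusted p = 0.0487). The gap between the highest control and the lowest KO heart was narrow in Oasl1. Without 1 heart Ifitm3 passed only where control 2 was left out (adjusted p = 0.0367; 0.0520 to 0.0899 otherwise), and Oasl1 in none of the 7 cases (0.0509 to 0.138). Within the slide rows the differences were 0.32 and 0.58 for Ifitm3 and 0.20 and 0.87 for Oasl1.

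Ifi44 and Ifit1 had the widest KO ranges of the effectors. Ifi44 read -0.91, -1.12, -1.20 and -0.53 in controls and -2.16, -1.03 and -1.27 in KO hearts, a difference of -0.55 ± 0.29 (adjusted p = 0.184). Ifit1, which binds viral RNA lacking cap methylation, read -1.11, -1.43, -1.51 and -1.56 in controls and -1.60, -0.49 and -1.15 in KO hearts, a difference of 0.32 ± 0.26 (adjusted p = 0.367). In Ifi44, KO 1 lay far below and KO 3 just below all controls. In Ifit1, KO 2 was above all controls and KO 1 just below them. Rsad2, which encodes the antiviral enzyme viperin and is singled out after its values were seen, read 0.90, 0.76, 1.55 and 1.52 in controls and 0.30, 0.62 and 0.48 in KO hearts. All KO hearts were below all controls, and the difference of -0.72 ± 0.23 missed the threshold (adjusted p = 0.0543), which it passed in 6 of 17 alternative analyses (adjusted p from 0.00776 to 0.186).

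The other effectors did not pass. Positive differences were 0.43 for Isg15, the ubiquitin-like modifier, 0.34 for Oas1a, an oligoadenylate synthetase, 0.26 for Bst2, which tethers budding virus, and 0.19 for Ifit2. Negative ones were -0.47 for Ifit3 and -0.24 for Oas2, with Xaf1 at -0.06 and Oasl2 at -0.00. The median of the 13 effectors was 0.19, within slide rows -0.45 and 0.30: the row that holds KO 1 alone gave the lower value. Of the 13, KO 1 was the lowest KO heart in 12 and KO 2 the highest in 10.

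The 6 GBP and IRG GTPases, which attack the vacuoles of intracellular microbes, split the KO hearts alike. KO 1 was the lowest and KO 2 the highest KO heart in 6 of 6, KO 1 lay below all 4 controls in 6 of 6 and KO 2 above all 4 controls in 6 of 6. None passed the test, against 25.2% of all features. Iigp1 read 0.76, -0.07, 0.98 and 0.83 in controls and -0.65, 1.72 and -0.08 in KO hearts, which is a 5.17-fold range over the KO hearts. In processed signal Iigp1 was 448 to 692 in controls and 275, 1389 and 376 in KO hearts 1 to 3. Gbp2 read 1.57, 1.36, 1.76 and 2.11 in controls and 0.65, 2.63 and 1.60 in KO hearts, with KO 3 among the controls, a 3.95-fold range.

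Gbp3 read 1.23, 0.74, 1.22 and 1.74 in controls and 0.11, 1.93 and 0.59 in KO hearts. Gbp7 read -0.99, -1.17, -0.45 and -0.17 in controls and -1.88, -0.12 and -1.16 in KO hearts. In both, KO 1 was far below and KO 2 just above the controls, with KO 3 at or under their lower end. The differences were -0.30 ± 0.53 for Iigp1, -0.07 ± 0.42 for Gbp2, -0.35 ± 0.42 for Gbp3 and -0.36 ± 0.42 for Gbp7, with adjusted p from 0.537 to 0.912; Igtp was at -0.27 and Irgm1 at -0.03. Without KO 1 the Gbp2 difference was 0.42, and without KO 2 it was -0.57. The median of the 6 was -0.28, within slide rows -0.84 and 0.00. The mean of the 6 was -0.02 and -0.41 in the controls of the row that holds KO 1, and 0.08 and 0.35 in the controls of the other row. Slide row and heart cannot be told apart for KO 1.

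In the MHC class I pathway 0 of 6 passed by limma, against 25.2% of all features, and 0 of 6 had an unadjusted p under 0.05. KO 1 was the lowest KO heart in 6 of 6. Nlrc5, the transactivator of class I genes, read -0.95, -0.97, -1.04 and -0.52 in controls and -0.99, 0.31 and -0.68 in KO hearts, a difference of 0.42 ± 0.30 (adjusted p = 0.323). Tap1, a subunit of the peptide transporter, read -2.07, -1.70, -1.64 and -1.08 in controls and -1.90, -0.43 and -1.44 in KO hearts, a difference of 0.37 ± 0.36 (adjusted p = 0.465). KO 2 alone exceeded the controls in both genes. B2m, the invariant light chain, read 5.75, 5.43, 5.48 and 5.84 in controls and 4.90, 5.26 and 5.81 in KO hearts, a difference of -0.30 ± 0.23 (adjusted p = 0.342).

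The class I members did not follow 1 order of hearts. KO 2 was the highest KO heart for Nlrc5 and Tap1, KO 3 for B2m and the heavy chains H2-K1 and H2-D1, and in Tap2 both read 3.34. The heavy chains differed by -0.00 ± 0.18 and -0.08 ± 0.21, and Tap2, the partner of Tap1, by -0.14 ± 0.18. Whether the H2-K1 and H2-D1 probes tell their near-identical relatives apart was not tested, which holds for the Gbp, Oas and Ifit families too. The median of the 6 was -0.04, within slide rows -0.19 and -0.01.

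The 3 class II members had KO ranges from 4.17-fold to 6.18-fold and went in another order: KO 2 lowest and KO 3 highest in 3 of 3, where 29.9% of all features had KO 2 lowest and 34.5% KO 3 highest. H2-Ab1, the beta chain, read 4.75, 4.49, 3.43 and 4.60 in controls and 4.66, 2.95 and 5.58 in KO hearts. In processed signal H2-Ab1 was 10669, 10554, 3688 and 9493 in controls and 10900, 3273 and 18973 in KO hearts. H2-Aa, the alpha chain, read 1.36, 1.20, 0.33 and 1.60 in controls and 1.03, -0.36 and 2.18 in KO hearts. Cd74, the invariant chain that guards the peptide groove, read 3.12, 3.25, 2.27 and 3.21 in controls and 3.65, 2.21 and 4.27 in KO hearts. In all 3 genes KO 2 was below and KO 3 above every control, and control 3 was the lowest control.

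As groups the class II members did not differ past the threshold. The differences were 0.08 ± 0.59 for H2-Ab1 (adjusted p = 0.931), -0.17 ± 0.56 for H2-Aa (0.833) and 0.42 ± 0.47 for Cd74 (0.525). The other kept probe of H2-Ab1 gave 0.12. Without KO 2 the H2-Ab1 difference was 0.80, and without KO 3 it was -0.51. The median of the 3 was 0.08, within slide rows 0.04 and 0.25.

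Set side by side per heart, the means of the type I response and of antigen presentation lay close for class I and far apart for class II. The mean of the 21 type I members, each relative to its own control mean, was -0.29, 0.36 and 0.15 in KO 1 to 3 and -0.15 to 0.13 in controls. That of class I was -0.35, 0.28 and 0.21 in KO hearts, and type I minus class I came to 0.07, 0.09 and -0.06, inside the control span of -0.19 to 0.14. The class I mean of KO 2 joined unlike genes. Relative to their control means, Nlrc5 was at 1.18 and Tap1 at 1.19 in KO 2, but B2m was at -0.36. H2-K1 was at -0.12, H2-D1 at -0.24 and Tap2 at 0.00. The class II mean was 0.31, -1.20 and 1.21 in KO 1 to 3. Type I minus class II came to -0.60, 1.56 and -1.06, all outside the control span of -0.23 to 0.64. The 0.64 was control 3 alone, and the other controls lay at -0.23 to -0.19. Of the KO hearts, KO 2 had the highest type I and the lowest class II mean. The GBP and IRG mean, at -1.07, 0.79 and -0.41, spread wider than that of the type I members, with controls from -0.41 to 0.35. As groups, KO minus control was near 0 for both contrasts, at 0.03 for type I minus class I and -0.03 for type I minus class II. Over the 17 alternative settings the class II contrast ran from -0.83 to 0.48, so its sign is not settled.

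**Figure D3:**
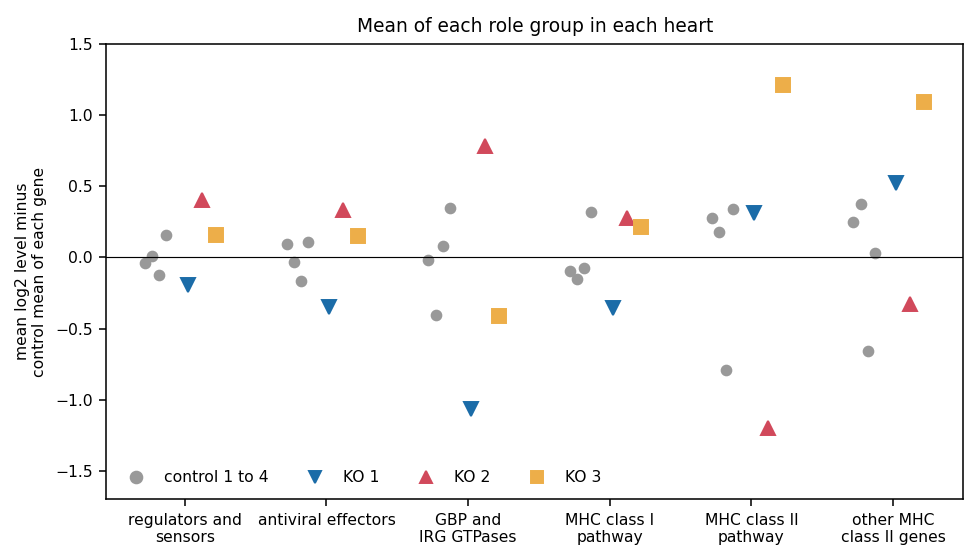
Each symbol is 1 heart's mean over the measured genes of a group, as log2 level minus the control mean of each gene; grey circles are controls 1 to 4 from left to right, and coloured symbols are KO 1 to 3. In the first 4 groups KO 1 is the lowest KO heart and KO 2 the highest, while in the class II members and the other class II genes KO 2 is lowest and KO 3 highest.

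Some markers of leukocyte types that make these transcripts rose in KO hearts, as did 10.2% of all features. Of the pan-leukocyte, monocyte and macrophage, and dendritic cell sums, the first did not overlap between the groups and the other two did. Pan-leukocyte markers, 6 of 6 measured, summed to 22.4, 27.1, 9.08 and 12.7 in controls and to 48.1, 33.1 and 56.4 in KO hearts, and 2 of the 6 rose. Monocyte and macrophage markers, 11 of 12 measured, summed to 46.1 to 78.4 in controls and 89.1, 71.0 and 134 in KO hearts, and 3 of the 11 rose. Dendritic cell markers, 5 of 8 measured (Xcr1, Clec9a and Cd209a were too dim), summed to 0.721 to 1.38 in controls and 2.31, 1.24 and 2.84 in KO hearts, and 1 of the 5 rose. KO 2, the lowest in class II, had the lowest of these 3 sums among the KO hearts, and control 3 the lowest among controls. Control 4 came next above control 3, with sums of 12.7, 53.7 and 0.896, but had the highest class II mean of the controls (0.34, against -0.79 in control 3). The KO 2 pan-leukocyte sum was above every control, and its other 2 sums lay within the control ranges. Its class II members were below every control. The part of these cells in Irf8 and in the class II genes was not tested, and in bulk tissue fewer cells of a type and less RNA per cell cannot be told apart.

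Many lymphocyte markers were too dim to be tested. Of the B cell markers 1 of 6 was measured, Cd79b, at 0.193 to 0.368 in controls and 0.578, 0.324 and 0.364 in KO hearts, and the defining markers Cd79a, Ms4a1, Pax5 and Blk were among those not well above background on enough arrays. Of the T cell markers 5 of 8 were measured, without Cd3d, Cd3g and Cd8a, and summed to 3.08 to 3.86 in controls and 3.12 to 3.50 in KO hearts. Of the NK cell markers 3 of 7 were measured, without Ncr1, Klrb1c, Klrk1 and Eomes, and summed to 1.89 to 2.50 in controls and 1.85 to 2.16 in KO hearts. None of these lymphocyte markers passed the test, and the T and NK sums of KO 1 and KO 2, the lowest and highest hearts in GBP and IRG genes, were 3.15 and 3.12, and 1.86 and 1.85. Neutrophil markers, 6 of 8 measured without Ly6g and Retnlg, rose in 5 of 6, against 10.2% of all features. Their marker means were 3.07, 3.31 and 1.30 above the control mean in KO 1 to 3. Their sums, led by 1 bright gene, were 114 to 176 in controls and 101 to 177 in KO hearts. Fibroblast markers, 6 of 6 measured, summed to 314 to 475 in controls and 355, 237 and 533 in KO hearts, again lowest in KO 2. Hepatocyte markers, 5 of 6 measured, fell in 4, against 15.0% of all features, with marker means of -1.02 to 0.67 around the control mean in controls and -3.18 to -2.76 in KO hearts. Endothelial markers had a difference below 0 in 7 of 7, with a median of -0.49, and 1 of the 7 fell. Their sums were 40.0 to 65.4 in controls and 37.8, 43.8 and 36.5 in KO hearts. Plasmacytoid dendritic cell markers, 3 of 5 measured without Ccr9 and Ly6d, had a median difference of -0.19, and none passed. The part of these cell types in the members' values was not tested.

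**Figure D4:**
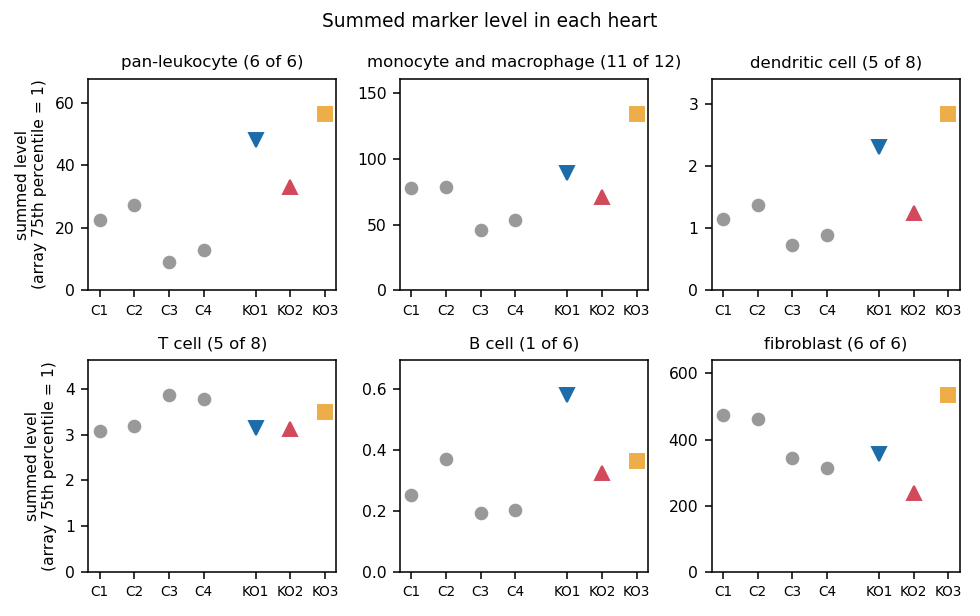
Each panel gives the summed linear level of a marker list in each heart (array 75th percentile = 1; markers measured of markers listed in the title), with controls C1 to C4 in grey and KO 1 to 3 in colour. Pan-leukocyte sums are 33.1 to 56.4 in KO and 9.08 to 27.1 in controls, and KO 2 is the lowest KO heart in the pan-leukocyte, monocyte and macrophage, dendritic cell, T cell, B cell and fibroblast panels. In the T cell panel KO 2 is at 3.12 and KO 1 close by at 3.15. Among the lists not drawn, KO 2 was the highest KO heart in the neutrophil, plasmacytoid dendritic cell and endothelial sums. It was the lowest in the NK cell and erythroid sums.

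Further genes of the pathway were taken from 5 lists. Of interferons, receptors and JAK-STAT genes 16 of 19 were measured, and the interferon genes Ifnb1, Ifna4 and Ifng were well above background on 0 of the 7 arrays and not tested. 2 of the 16 rose and none fell, beside 10.2% and 15.0% of all features. Irf5, a factor of the myeloid interferon response, rose by 1.43 ± 0.33 (adjusted p = 0.0216, limma). Ptpn6, the leukocyte phosphatase SHP-1, rose by 1.32 ± 0.40 (adjusted p = 0.0453, limma). Both are expressed in leukocytes, whose pan-leukocyte markers summed to 9.08 to 27.1 in controls and 33.1 to 56.4 in KO hearts; the part of these cells in both rises was not tested.

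Of the nucleic acid sensing genes and adaptors 14 of 17 were measured, 4 rose and 1 fell, beside 10.2% and 15.0% of all features. Ikbke, a kinase that activates interferon regulatory factors, was 1 of the 4 rises, at 1.64 ± 0.29 (adjusted p = 0.0138, limma). Only 1 of the 4 control arrays measured it well above background. It passed the filter only through the 3 KO arrays, the group in which it was high, so nothing is drawn from its call. Mavs, the mitochondrial adaptor of RIG-I and MDA5, fell by 1.15 ± 0.20 on the log2 scale (adjusted p = 0.0131). The other rises were Myd88, Zbp1 and Tbk1.

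A further 30 interferon-induced genes were measured of 37, of which 3 rose and 2 fell, beside 10.2% and 15.0% of all features. Slfn2, a Schlafen protein of immune cells, rose by 1.09 ± 0.16 (adjusted p = 0.0123), and Ifitm2, the neighbour and relative of Ifitm3, by 0.62 ± 0.13 (adjusted p = 0.0181). Eif2ak2 was the other rise, and Pml and Gbp6 the falls. KO 1 was the lowest KO heart in 24 of the 30, and the list's mean was -0.38, 0.30 and 0.02 in KO 1 to 3, in the order of the antiviral members.

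Of the other class I genes 15 of 18 were measured, 0 rose and 2 fell, beside 10.2% and 15.0% of all features. Psme1, a proteasome activator subunit, fell by 0.84 ± 0.18 on the log2 scale (adjusted p = 0.0184, limma). Rfxank, a subunit of the RFX complex on MHC promoters, fell by 1.35 ± 0.28 (adjusted p = 0.0181, limma). Psmb8, an immunoproteasome subunit, was 0.52 ± 0.17 higher and did not pass (adjusted p = 0.0557). In these 15 genes KO 1 was the lowest KO heart in 7, KO 2 the highest in 4 and KO 3 the highest in 11. The mean of these class I genes was -0.25, -0.19 and 0.06 in KO 1 to 3, with KO 3 rather than KO 2 the highest, unlike the class I members. Of the other class II genes 9 of 13 were measured, without Ciita, the class II transactivator, which was well above background on 1 array. By limma 0 of the 9 passed, against 25.2% of all features. Of the 9, 3 had an unadjusted p under 0.05, and the median difference was 0.62. Ctss, the protease that trims the invariant chain and is rich in macrophages, was 1.31 ± 0.43 higher (adjusted p = 0.0592), and Cd83, a surface protein of mature dendritic cells, was at -0.93 ± 0.31 (adjusted p = 0.0607). The order of the KO hearts was that of the class II members in 9 of 9, with KO 2 lowest and KO 3 highest, and the list's mean was 0.52, -0.33 and 1.09 in KO 1 to 3.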

How the data were processed

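Total RNA of 7 heart apices (4 control, 3 KO), 100 ng per labelling reaction per the labels, was hybridised to 1-colour Agilent arrays. Per the file headers, the authors used Agilent Feature Extraction 11.0.1.1. For each spot the deposited files give background-subtracted intensity (processed signal) and flags, taken as given; the deposited value table holds log2 values centred per probe. From the log2 processed intensity the 75th percentile of the array's non-control spots was subtracted; outlier spots were dropped and saturated ones kept. A probe was kept where at least 3 arrays of a group had it well above background (26576 of 55681), named by RefSeq accession (28026 probes matched a symbol), and the brightest kept probe stood for a gene. KO minus control was fitted with lmFit and eBayes of limma 3.58.1 (R 4.3.3, two-sided), with p adjusted by Benjamini-Hochberg over 22344 features, threshold 0.05; the test was checked on simulated data. Role groups and lists are described by counts, medians and means per heart, without a test. Members and lists were chosen with earlier results of these data known. All 38 members are named; values of every heart are given for the 2 members with the lowest p and the 2 with the widest KO range per role group, and in other lists the 2 genes with the lowest p are given, with Ifng, Ifnb1, Psmb8 and Ciita; some genes that the rule names are not reported here. The further genes of these lists that passed are named after their values were seen. Alternatives were normexp (offset 50, on median spot signals), quantile normalization, median centring, other filters, the authors' value table, means over probes, trended variance, replicate or slide row as a block, and each heart left out. The counts of SD and of heart order under these were added after seeing the data.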

Additional observations from a re-analysis of the deposited data

Results flagged for a closer look

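Among the 4 control hearts, 3 of 36 members and 2 of 5 role means had 1 heart farther from the rest than the critical value of Dixon's test allows; chance alone gives about 1 in 20. Ifih1 was 0.75 in control 4, where the nearest other control was at 0.36. Oas2 was 2.10 in control 2, where the nearest was at 2.36. Cd74 was 2.27 in control 3, where the nearest was at 3.12. The mean of the class I pathway was 0.32 in control 4, and the mean of the class II pathway was -0.79 in control 3. Groups of 3 hearts were not examined this way, so the spread between KO hearts is not among these.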

How the results depend on the processing

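The call of 3 members was the least stable result. All features passing numbered 5640, with 1415 when no filter was used, 9 with the replicate block and 69 to 6970 without 1 heart; the members passing by limma numbered 0 without a filter (48809 features tested), 0 with the replicate block and 0 to 3 without 1 heart, with 4, 3 and 4 to 11 at an unadjusted p under 0.05. The median of regulators and sensors ran from -0.17 without KO replicate 2 to 0.24 without KO replicate 1. Over all 17 settings the median of the antiviral effectors ran from 0.03 to 0.34, of GBP and IRG genes from -0.79 to 0.19, of class I from -0.20 to 0.09 and of class II from -0.51 to 0.80, so the sign of the last 3 is not settled. The replicate block leaves out control 4, which has no KO partner of its number, and the numbers do not pair the hearts (correlations of deviations 0.18, -0.22 and -0.20). Over the other settings 3 or 4 members passed; with quantile normalization Oasl1 had an adjusted p of 0.0509 and Rsad2 fell, at 0.0478. Over 14 settings that keep all KO hearts, KO 1 was the lowest KO heart in 29 to 31 members, the SD was larger in KO in 26 to 34, and the order of KO hearts held in 3 of 3 class II and 6 of 6 GBP and IRG members. Only normexp, quantile normalization, median centring, the authors' value table and means over probes changed the members' KO values. The other settings left these values as they were, so for the order of KO hearts they are no check. Irf8, Ifitm3 and Oasl1 kept their direction in all 17 settings but passed the adjusted threshold in only 11, 9 and 7 of them. Genes of the other lists were not run under these settings. With 4 and 3 arrays, the precision of every difference is limited.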
